A study of Mus musculus with 4 samples.

Results

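The genes described here are those of the metzincin proteases that cut the extracellular matrix and shed proteins from the cell surface, together with their inhibitors: matrix metalloproteinases (MMPs), ADAMs, ADAMTSs, the ADAMTS-like proteins and the tissue inhibitors of metalloproteinases (TIMPs). They were taken by gene symbol, as every Mmp, Adam, Adamts, Adamtsl and Timp gene of the deposited tables. They numbered 84 of 24346 genes (23 MMPs, 33 ADAMs, 19 ADAMTSs, 5 ADAMTS-like genes and 4 TIMPs). These genes and the lists used below were chosen with earlier results of these data known. Expression was compared between 2 libraries from primary cultures of vestibular cells and 2 from primary cultures of cochlear cells, both taken from mouse inner ear and sequenced as mRNA from total RNA. The labels give no strain, age, treatment or days in culture, and do not say whether the libraries of a group came from separate animals or cultures, so every p-value here measures the spread between these libraries, which may be technical. The design text states that the aim was to find genes expressed differently by the cells of these organs.

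MMPs and their relatives are made as inactive precursors whose prodomain has to be cut away or displaced before the zinc-bearing catalytic site is free. Secreted MMPs and ADAMTSs act on collagens, proteoglycans and elastic fibres, membrane-type MMPs act at the cell surface, and ADAMs mostly release the outer parts of membrane proteins such as Notch receptors and growth factor precursors. TIMPs bind the catalytic site of MMPs and, in the case of Timp3, also of several ADAMs and ADAMTSs. ADAMTS-like proteins share the binding modules of ADAMTSs but have no catalytic domain. In the inner ear these genes are of interest because hearing and balance depend on a bony and cartilaginous capsule, on collagen-rich connective tissue and on gel-like matrices over the sensory epithelia.

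The libraries differed in the cell types they held, and these differences are given first because they move with several of the genes below. Cochlear library 2 was nearly without macrophage RNA: the 14 macrophage markers summed to 8886, 6762 and 6832 FPKM (fragments scaled to transcript length and library size) in vestibular 1, vestibular 2 and cochlear 1, and to 30.2 FPKM in cochlear 2, where 10 of the 14 lay below 1 FPKM and none was listed at 0. Vestibular library 2 was low in the sum of epithelial RNA, with 109 FPKM over 12 markers against 1185, 2081 and 2542.5 in vestibular 1, cochlear 1 and cochlear 2. Cdh1 did not fall from vestibular 1 to vestibular 2, at 32.2 and 33.9 FPKM. All 12 markers had a negative vestibular minus cochlear difference, where 51.4% of all genes had a positive one. In 10 of the 12 both vestibular libraries lay below both cochlear libraries, against 28.4% of all genes. Vestibular 2 was also high in the sum of the cartilage list (9 markers in the tables, 4357.5 FPKM against 783, 230 and 235) and in melanocyte RNA (5 markers, 220 FPKM against 1.80, 1.51 and 2.95). The cartilage sum was mostly collagen RNA (Col2a1 2365, Col9a3 663, Col9a1 621 and Col11a1 546 FPKM in vestibular 2). Acan (7.52 FPKM) and Comp (0.849 FPKM) were also highest there. Sox9 was not, at 29.4 FPKM against 17.4, 28.7 and 29.5, nor was Matn1, at 0.105 FPKM against 0.992, 0.0514 and 0.251. Fibroblast markers summed to 5456 and 11725 FPKM among the vestibular and to 2600 and 2312 FPKM among the cochlear libraries. All 11 had a positive vestibular minus cochlear difference, against 51.4% of all genes. Of 6 hair cell markers 2 were kept, Cib2 (15.3 to 25.6 FPKM) and Myo7a (5.81 to 13.4 FPKM), both with overlap between groups. Under the filter, Pou4f3 had 1.0048 and 0.703 FPKM among the vestibular and 0.0984 and 0.0962 FPKM among the cochlear libraries. Otof had 0.860 and 1.63 FPKM against 0.215 FPKM and a listed 0. Gfi1 had 0.472 and 0.925 FPKM against a listed 0 in both cochlear libraries. In Pou4f3, Otof and Gfi1 the groups did not overlap. Atoh1, the gene of the hair cell transcription factor, was listed at 0 in 3 libraries and at 0.1001 FPKM in vestibular 2. In such bulk samples, fewer cells of a type and less RNA per cell cannot be told apart. The number of fragments per library is not known, so no counting interval is given, and FPKM totals were between 479380 and 519122.

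In the proximal promoters, 9 of the 53 genes found in RefSeq's promoter table (build GRCm38.p6) held the AP-1 motif TGAGTCA on either strand within 250 bases before a start, and 7 of those 9 belonged to a single run of 10 neighbouring MMP genes on chromosome 9. AP-1, the dimer of Fos and Jun proteins, is a known activator of collagenase and stromelysin genes. The motif was held by 4.46% of all 32851 promoters listed there, and by 9 of the 58 promoters of the 53 genes. The last 100 bases before the start are printed for the genes of that run whose levels are described below (Mmp13, Mmp12 and Mmp3), for their neighbours Mmp10 and Mmp1a, which hold the same letters and were at or near 0 in all libraries, and for Adam8 and Mmp14, which do not hold it. Capitals mark TGAGTCA or its reverse complement TGACTCA, the TATA box letters TATAAA on the gene's strand, and the GC box GGGCGG or its reverse complement. All run 5′ to 3′ on the strand of the gene.
Mmp13 (chr9:7272414-7272513, plus strand): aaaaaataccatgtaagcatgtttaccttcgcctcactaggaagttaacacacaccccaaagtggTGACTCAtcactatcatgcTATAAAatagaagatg
Mmp12 (chr9:7347274-7347373, plus strand): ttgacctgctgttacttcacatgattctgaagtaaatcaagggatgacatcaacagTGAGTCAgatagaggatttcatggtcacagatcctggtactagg
Mmp3 (chr9:7445722-7445821, plus strand): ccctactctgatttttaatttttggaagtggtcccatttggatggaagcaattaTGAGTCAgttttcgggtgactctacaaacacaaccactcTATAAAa
Mmp10 (chr9:7502242-7502341, plus strand): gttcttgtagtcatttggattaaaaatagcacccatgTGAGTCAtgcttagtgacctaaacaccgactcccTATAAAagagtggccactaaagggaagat
Mmp1a (chr9:7464041-7464140, plus strand): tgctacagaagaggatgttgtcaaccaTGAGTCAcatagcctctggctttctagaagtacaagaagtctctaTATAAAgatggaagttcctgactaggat
Adam8 (chr7:139992563-139992662, minus strand): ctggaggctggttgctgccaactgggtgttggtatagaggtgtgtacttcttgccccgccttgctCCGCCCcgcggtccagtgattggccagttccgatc
Mmp14 (chr14:54431498-54431597, plus strand): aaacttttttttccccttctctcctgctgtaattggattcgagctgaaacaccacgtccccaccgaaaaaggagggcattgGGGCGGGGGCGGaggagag

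The AP-1 letters lay 35 bases before the start of Mmp13, 46 before that of Mmp3, 44 before the downstream start of Mmp12, 63 before that of Mmp10 and 73 before that of Mmp1a, and in 4 of these 5 a TATAAA followed closer to the start. The printed Mmp12 window precedes the downstream of 2 starts in the table, and the window of the upstream start held no match. TATAAA occurred in 7.59% of all promoters and GGGCGG in 32.7%, against 11 and 24 of the 58 promoters of the 53 genes here. A match is a description of letters, and no binding was measured in these samples.

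Of the 84 genes, 42 passed the filter of a mean of at least 1 FPKM over the 4 libraries, and 17 were listed at 0 in every library. The 17 were mostly ADAM genes known from testis and epididymis (Adam2, Adam7, Adam18, Adam20, Adam24, Adam26a, Adam26b, Adam29, Adam30, Adam34, Adam39, Adam6a and Adam6b), together with Mmp1a, Mmp1b, the enamel protease gene Mmp20 and Mmp21. Of 80 ribosomal protein genes 3 were also listed at 0 in every library, among them Rpl26, so an exact 0 may be a failed estimate and is only described as listed at 0. Just inside the filter lay Adamts14 (mean 1.07 FPKM) and Mmp17 (1.34), and just outside it Adamts12 (0.949) and Mmp27 (0.941). By family, 12 of 23 MMPs, 12 of 33 ADAMs, 11 of 19 ADAMTSs, 4 of 5 ADAMTS-like genes and 3 of 4 TIMPs were kept.

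**Figure D1:**
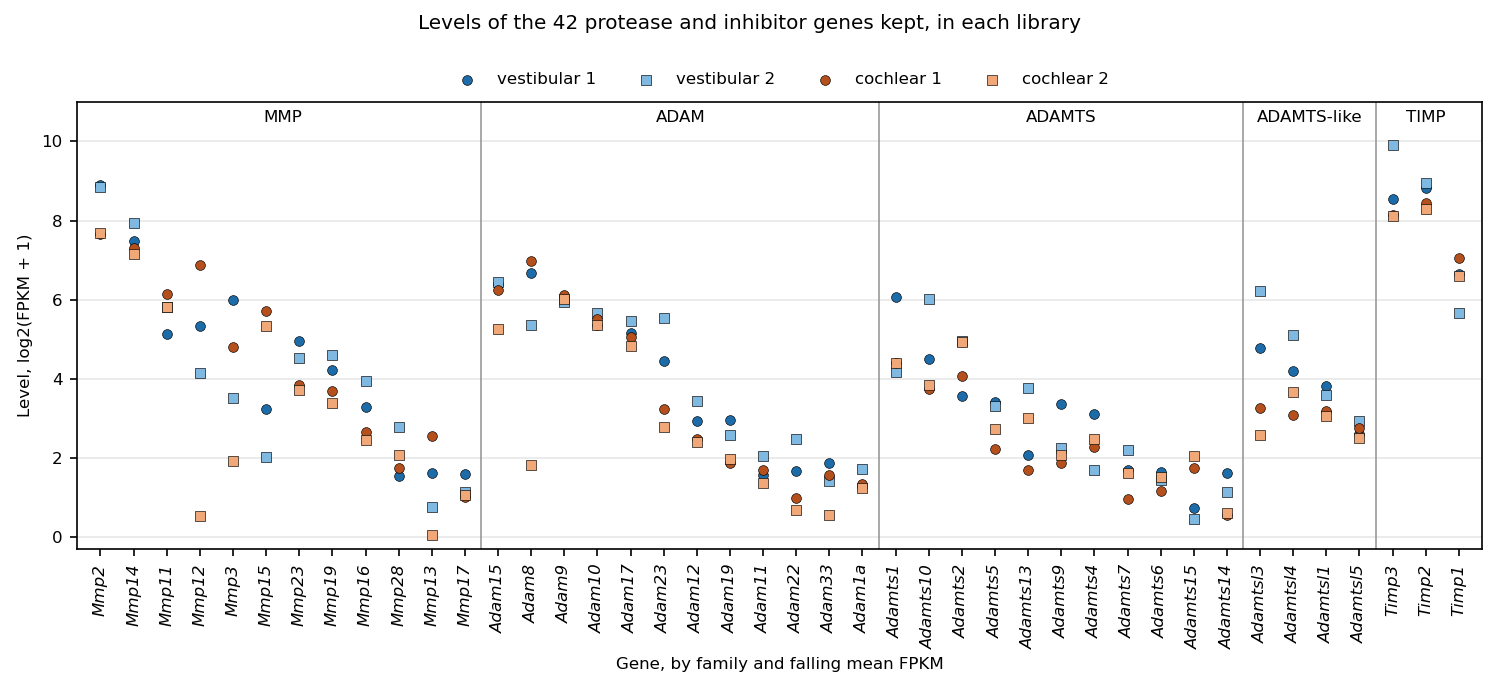
Level of each of the 42 genes kept, as log2(FPKM + 1) on the vertical axis, with 1 point per library (circles for replicate 1, squares for replicate 2) and genes ordered by family and mean. Mmp2, Mmp14, Timp2 and Timp3 are the highest, the pair of cochlear points lies below the pair of vestibular points in 22 genes, and cochlear 2 alone is far down for Adam8 and Mmp12. Mmp13 is also lowest in cochlear 2, but its points are spread out, with vestibular 2 the next lowest.

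Between the groups, the vestibular pair exceeded the cochlear pair without overlap in 22 of the 42 genes, where this held for 26.9% of the 13200 genes kept in the whole table. The opposite order was found in 2 of the 42, against 28.4% of all genes. The log2 difference (vestibular minus cochlear of log2(FPKM + 1), a scale that understates differences of low genes) was positive in 35 of the 42 genes (against 51.4% of all genes) and negative in 7, with a median of 0.62 against 0.01 over all genes kept. In limma's moderated test none of the 42 passed an adjusted p of 0.05 (Benjamini-Hochberg over all 13200 genes, of which 4 or 0.0303% passed). At an unadjusted p under 0.05 stood 13 genes with higher vestibular levels, against 7.61% of all genes, and 2 with higher cochlear levels, against 10.6%. The count of 13 was 2 (4.76%, against 2.86% of all genes) when cochlear library 2, the library low in macrophage RNA, was left out, and 8 (19%, against 8.01%) without cochlear 1. It was 15 (35.7%, against 9.5%) without vestibular 1 and 13 (31%, against 5.17%) without vestibular 2. With 2 libraries against 2 an exact permutation test cannot go below a p of 0.33, and the p-values below rest on limma's pooling of the spread over genes.

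**Figure D2:**
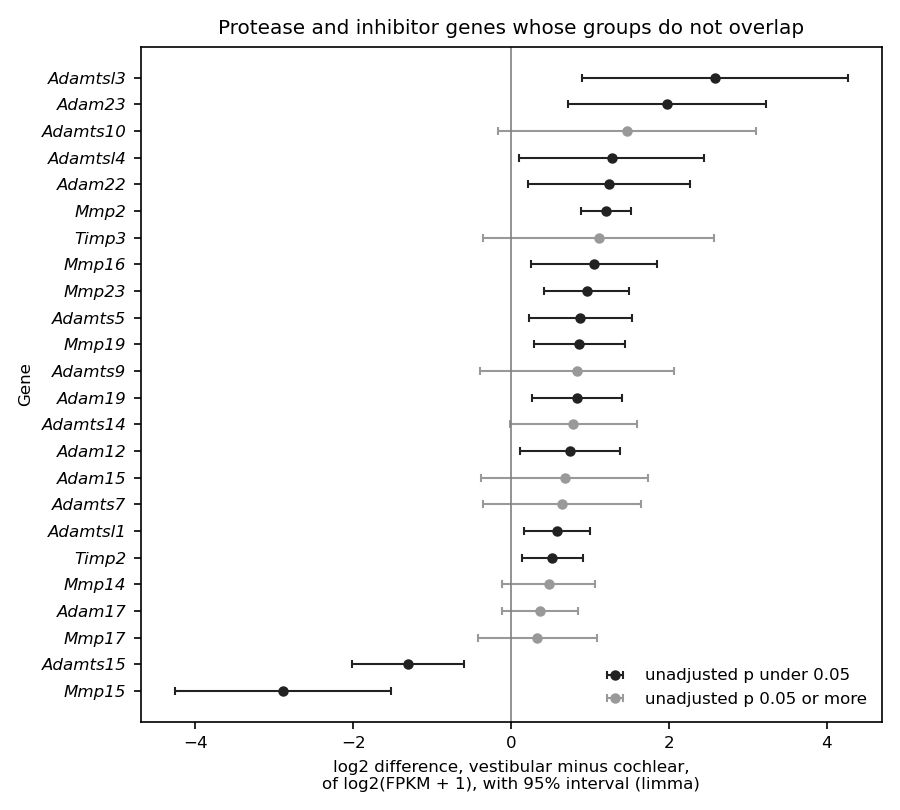
Log2 difference, vestibular minus cochlear, with limma's 95% interval, for the 24 genes whose groups do not overlap; black marks an unadjusted p under 0.05 and grey a p of 0.05 or more. The points run from -2.90 for Mmp15 to 2.59 for Adamtsl3, and the Mmp2 interval (0.89 to 1.52) is among the narrowest.

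Among the MMPs, the gelatinase gene Mmp2 had the most regular difference. Mmp2 degrades denatured collagen and basement membrane collagen, and is activated at the cell surface by the Mmp14 protein in a complex with Timp2. It stood at 476 and 461 FPKM for vestibular libraries 1 and 2, and at 201 and 204 FPKM for cochlear libraries 1 and 2. The vestibular mean of 469 ± 11.2 FPKM was 2.31 times the cochlear mean of 203 ± 2.36 FPKM (SD, n = 2 each), a gap far larger than the spread within either group (log2 difference 1.21, SE 0.11, limma unadjusted p 0.000607, adjusted p 0.0914). Its log2 difference ran from 1.18 to 1.23 when each library was left out in turn. Fibroblast markers also stood higher in both vestibular libraries, and their part in the Mmp2 difference was not tested. The other gelatinase gene, Mmp9, known from leukocytes and osteoclasts, was at most 0.988 FPKM in any library.

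The partners of Mmp2 stood apart less. Mmp14, the most abundant membrane-type MMP gene, had 177 and 245 FPKM among the vestibular and 157 and 142 FPKM among the cochlear libraries. Vestibular 1 and cochlear 1 were thus close, and the log2 difference of 0.48 (95% interval -0.11 to 1.06, unadjusted p 0.0847 in limma) did not pass (adjusted p 0.328). Timp2 had 453 and 495 FPKM against 347 and 312 FPKM (log2 difference 0.52, SE 0.14, limma unadjusted p 0.0212, adjusted p 0.216). Per library, Timp2 was 0.950 and 1.08 times the level of Mmp2 in the vestibular cultures, and 1.73 and 1.53 times in the cochlear cultures, and these ratios did not overlap between groups.

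Mmp15, a membrane-type MMP gene closely related to Mmp14, went the other way and was the largest difference of the family. It stood at 52.0 and 39.2 FPKM for cochlear libraries 1 and 2, at 8.44 FPKM in vestibular 1 and at 3.08 FPKM in vestibular 2. Both cochlear libraries were far above both vestibular libraries, and the cochlear mean was 7.92 times the vestibular mean (log2 difference -2.90, SE 0.48, limma unadjusted p 0.00476, adjusted p 0.139). Mmp15 made up 24.9% and 21.6% of the sum of Mmp14 and Mmp15 in the cochlear libraries, against 4.54% and 1.24% in the vestibular libraries. The sum of the epithelial markers had the same order of libraries at the low end, lowest in vestibular 2 and next in vestibular 1. Without vestibular 2 the log2 difference of Mmp15 was -2.29 and without vestibular 1 it was -3.50. The part of epithelial RNA in this difference was not tested.

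The other membrane-bound MMPs that were kept stood higher in the vestibular libraries. Mmp16, a further transmembrane MMP gene, had 8.73 and 14.3 FPKM against 5.32 and 4.46 FPKM (log2 difference 1.06, SE 0.28, limma unadjusted p 0.0221, adjusted p 0.219). Mmp23, whose protein is anchored in the membrane by its own prodomain, had 30.1 and 22.1 FPKM against 13.3 and 12.3 FPKM (log2 difference 0.96, SE 0.19, limma unadjusted p 0.00858, adjusted p 0.171). In both genes the groups did not overlap, and in Mmp23 the cochlear libraries differed by only 1.08 times. Mmp17, a lipid-anchored MMP gene, lay near the filter, at 2.04 and 1.21 FPKM against 1.01 and 1.10 FPKM. Mmp24 and Mmp25 were at most 0.766 and 0.625 FPKM in any library.

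Of the secreted MMPs outside the gelatinases, Mmp19, which cuts basement membrane proteins, had 17.6 and 23.1 FPKM among the vestibular and 11.9 and 9.52 FPKM among the cochlear libraries (log2 difference 0.86, SE 0.20, limma unadjusted p 0.0150, adjusted p 0.197). Mmp19 overlaps Tmem198b on the other strand, which had 19.9, 21.6, 14.9 and 10.05 FPKM going from vestibular 1 and 2 to cochlear 1 and 2. The order of the libraries is the same in both genes, and whether strand was used in counting is not given in the sources used here. Mmp11, which is activated inside the cell by furin, came next after Mmp2 and Mmp14 in mean level and overlapped between groups, with 34.2 and 55.8 FPKM against 69.9 and 55.0 FPKM (log2 difference -0.49, 95% interval -1.34 to 0.36, limma unadjusted p 0.177, adjusted p 0.440). It too overlaps a gene of the other strand, Chchd10, at 40.8 to 59.9 FPKM. Mmp28, or epilysin, had 1.94 and 5.94 FPKM against 2.37 and 3.22 FPKM, and the groups overlapped.

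Adam8 and 3 MMP genes of the chromosome 9 run were lowest in cochlear 2, the library low in macrophage RNA. Mmp12 encodes macrophage elastase, and stood at 39.4 and 16.8 FPKM among the vestibular libraries, at 116 FPKM in cochlear 1 and at 0.451 FPKM in cochlear 2. Adam8, a leukocyte ADAM gene, stood at 101, 40.0, 126 and 2.54 FPKM in that order, and the collagenase gene Mmp13 at 2.08, 0.687, 4.86 and 0.0366 FPKM. In each of these 3 genes cochlear 1 was the highest of the 4 libraries and cochlear 2 the lowest, so the group means describe neither cochlear library.

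The ratio of cochlear 1 to cochlear 2 was 257 for Mmp12, 133 for Mmp13 and 49.4 for Adam8. For Mmp12 and Mmp13 the divisor lay near 0, at 0.451 and 0.0366 FPKM, so with depth unknown the size of these ratios is uncertain. Mmp3, the gene of stromelysin 1, differed 9.77 times between the cochlear libraries. It stood at 62.5 and 10.5 FPKM among the vestibular and at 27.1 and 2.78 FPKM among the cochlear libraries. Beside them the macrophage marker Csf1r stood at 219 and 169 FPKM among the vestibular libraries, 116 FPKM in cochlear 1 and 0.148 FPKM in cochlear 2. The log2 differences of Mmp12 and Adam8, at 1.04 (SE 2.37) and 1.61 (SE 1.96, limma unadjusted p 0.461, adjusted p 0.680), turned negative without cochlear 2, at -2.13 and -0.97. The part of macrophage RNA in these levels was not tested.

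Within the vestibular group the same genes stood 2.35 times (Mmp12), 2.52 times (Adam8), 3.03 times (Mmp13) and 5.97 times (Mmp3) higher in library 1 than in library 2, while the macrophage sum differed less (8886 against 6762 FPKM). The AP-1 gene Fos had 41.1 and 3.10 FPKM among the vestibular and 40.8 and 12.3 FPKM among the cochlear libraries, and Junb 112 and 17.8 against 119 and 53.6 FPKM. Jun had 45.7 and 22.5 against 56.6 and 30.001 FPKM, and Jund, the steadiest, 62.9 and 47.2 against 54.1 and 56.8 FPKM. Vestibular 1 and cochlear 1 were thus the higher library of their group for Fos, Junb, Jun, Mmp3, Mmp12, Mmp13 and Adam8. The macrophage sum, Fosb and Fosl2 had this order too. Jund and Fosl1 did not, with cochlear 2 above cochlear 1 (Fosl1 0.350 and 0.0629 FPKM against 1.79 and 1.87 FPKM). The share of all genes with this order is not given here. The Adam8 promoter window does not hold the AP-1 letters. Adam19 holds them 131 bases before 1 of its listed starts and not before the others, and had 6.74 and 4.97 FPKM against 2.67 and 2.96 FPKM. All 7 listed AP-1 genes had negative differences (median -0.71), where 51.4% of all genes had positive ones, and Jund (-0.02) and Fosl2 (-0.13) lay near 0. Of the 7, 1 (Fosl1) was at an unadjusted p under 0.05 in limma, against 10.6% of all genes with higher cochlear levels. Whether AP-1 levels bear on the MMP levels was not tested.

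The 10 genes of the chromosome 9 run span 427 kb (chromosome 9 at 7272514 to 7699585, GENCODE M21 on GRCm38), in the order Mmp13, Mmp12, Mmp1b, Mmp3, Mmp1a, Mmp10, Mmp8, Mmp27, Mmp20 and Mmp7. Only Mmp13, Mmp12 and Mmp3 were kept, all near one end of the run. Mmp27 reached 2.02 FPKM in vestibular 1, with 0.910 FPKM in vestibular 2, 0.829 FPKM in cochlear 1 and a listed 0 in cochlear 2. The collagenase gene Mmp8, the stromelysin gene Mmp10 and the matrilysin gene Mmp7 were at most 0.329, 0.242 and 0.138 FPKM, each highest in cochlear 1, and each was listed at 0 in cochlear 2. Mmp12 and Mmp1b overlap on opposite strands, and Mmp1b was listed at 0 everywhere.

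**Figure D3:**
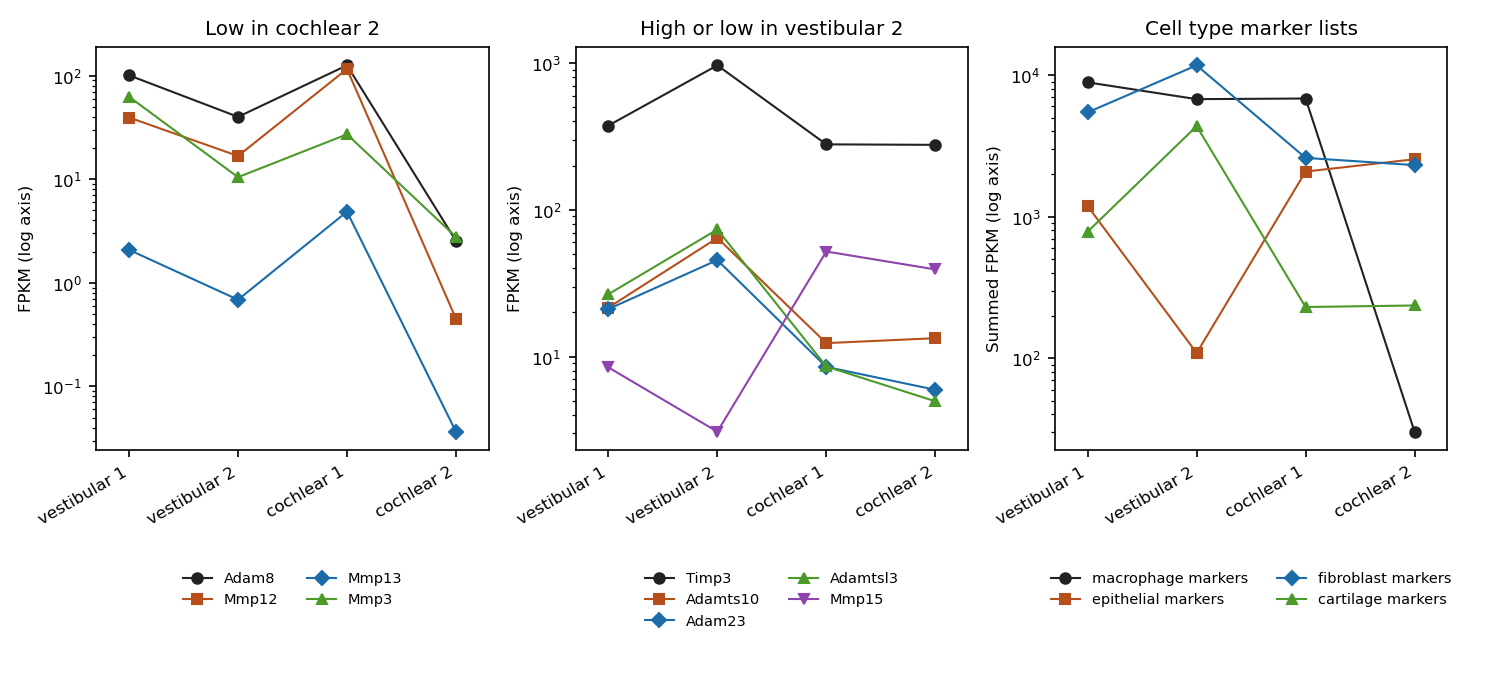
FPKM on log axes in the 4 libraries for genes that were low in cochlear 2 (left), for genes with an extreme level in vestibular 2 (middle), and the summed FPKM of 4 marker lists (right); lines only join the points of a gene or list, and the libraries have no order. Mmp12, Mmp13 and Adam8 are lowest where the macrophage sum is 30.2 FPKM, and Mmp15 is lowest where the epithelial sum is 109 FPKM.

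Among ADAM genes whose groups did not overlap, the largest differences were those of Adam23 and Adam22, whose proteins have no protease activity. Both encode neural cell surface proteins that bind secreted LGI proteins. Adam23 stood at 21.1 and 45.4 FPKM among the vestibular and at 8.50 and 5.94 FPKM among the cochlear libraries, a 4.61-fold ratio of means (log2 difference 1.98, SE 0.44, limma unadjusted p 0.0128, adjusted p 0.189). Adam22 had 2.21 and 4.58 FPKM against 0.974 and 0.622 FPKM (log2 difference 1.24, SE 0.36, limma unadjusted p 0.0294, adjusted p 0.235). Vestibular 2 stood 2.16 (Adam23) and 2.07 times (Adam22) above vestibular 1, and both cochlear libraries were lower than either. The other gene of this kind, Adam11, overlapped between groups, with 1.99 and 3.12 FPKM against 2.23 and 1.60 FPKM. Of the 4 LGI genes 2 were kept. Lgi4 had the same order, with 1.88 and 5.59 FPKM against 0.542 and 0.836 FPKM (log2 difference 1.37, SE 0.48, limma unadjusted p 0.0516, adjusted p 0.276). Lgi2 had the opposite order, with 0.365 and 0.493 FPKM among the vestibular and 11.3 and 20.7 FPKM among the cochlear libraries (log2 difference -3.52, SE 0.34, limma unadjusted p 0.000696, adjusted p 0.0914). Under the filter, Lgi3 stood at 0.599 and 0.380 FPKM against 0.217 and 0.182 FPKM, and Lgi1 was at most 0.284 FPKM. Neuron markers were low, and 2 of 7 were kept, with the whole list at 16.8 and 11.4 FPKM among the vestibular and 4.07 and 2.15 FPKM among the cochlear libraries.

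The general sheddase genes Adam9 and Adam10 were close to level between the organs. Adam10, which cuts Notch receptors and cadherins, had 40.1 and 49.9 FPKM against 44.5 and 40.5 FPKM (log2 difference 0.07, 95% interval -0.37 to 0.51). Adam9 had 65.6 and 60.0 FPKM against 68.8 and 63.3 FPKM (log2 difference -0.07, 95% interval -0.39 to 0.25, limma adjusted p 0.749). Adam17, which releases TNF and ligands of the EGF receptor, had 34.6 and 43.3 FPKM against 32.3 and 27.5 FPKM, with groups that did not overlap and a limma unadjusted p of 0.103. The Adam10 interval still allows a log2 difference of up to 0.51 and that of Adam17 up to 0.85, so equal levels are not shown. Adam17 overlaps Iah1 on the other strand, which had 30.5 to 48.0 FPKM.

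Adam15, the most abundant ADAM gene, was set apart by 1 library. It had 83.9 and 87.0 FPKM among the vestibular libraries, 74.6 FPKM in cochlear 1 and 37.6 FPKM in cochlear 2, and the difference was within the spread (log2 difference 0.68, SE 0.37, limma unadjusted p 0.145, adjusted p 0.404). Adam12 and Adam19, known from muscle, bone and heart cushion mesenchyme, had higher vestibular levels: Adam12 stood at 6.65 and 9.82 FPKM versus 4.55 and 4.30 FPKM, Adam19 at 6.74 and 4.97 FPKM versus 2.67 and 2.96 FPKM. Both had groups that did not overlap (log2 differences 0.75 and 0.83, limma unadjusted p 0.0318 and 0.0161, adjusted p 0.237 and 0.204). Adam33 had 2.66, 1.66, 1.99 and 0.488 FPKM going from vestibular 1 and 2 to cochlear 1 and 2, and Adam1a 1.38 to 2.29 FPKM over all libraries. Adam28, a lymphocyte gene, was at most 0.519 FPKM. Of the 13 ADAM genes on chromosome 8 only Adam9 was kept, and 8 were listed at 0 everywhere.

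Of 12 genes listed as regulators of ADAMs 11 were kept, and 1 with higher vestibular and 2 with higher cochlear levels were at an unadjusted p under 0.05, against 7.61% and 10.6% of all genes. Rhbdf1, which carries Adam17 through the secretory pathway, had 26.97 and 30.9 FPKM against 19.4 and 20.6 FPKM. The tetraspanin genes Tspan14 and Tspan15, whose products associate with Adam10, had 36.4 and 32.0 FPKM against 61.1 and 60.1 FPKM, and 7.52 and 3.88 FPKM against 14.4 and 16.7 FPKM. Tspan17, of the same group, overlapped at 25.9 to 36.1 FPKM. Tspan5, also of that group, had the reverse order without overlap, with 13.2 and 16.4 FPKM against 11.1 and 8.08 FPKM. Frmd8, which stabilises the Rhbdf proteins, lay at 27.2 and 23.7 FPKM against 28.4 and 31.5 FPKM. Of 23 substrate and ligand genes 18 were kept, 2 at an unadjusted p under 0.05 with higher vestibular levels (Notch2 and Cdh2; 7.61% of all genes) and 5 with higher cochlear levels (10.6% of all genes). Among those 5, the epithelial cadherin gene Cdh1 had 122 and 146 FPKM among the cochlear and 32.2 and 33.9 FPKM among the vestibular libraries. Cdh1 is also one of the epithelial markers. The other abundant substrate genes overlapped between groups: App at 804 to 991 FPKM, Cx3cl1 at 63.7 to 146 FPKM and Cxcl16 at 22.9 to 38.3 FPKM.

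ADAMTS genes had few regular differences, and several stood apart between the vestibular libraries themselves. Adamts1, a protease of versican and aggrecan, stood at 66.5 FPKM in vestibular 1 and at 17.0, 20.3 and 20.2 FPKM in vestibular 2, cochlear 1 and cochlear 2. Adamts9 and Adamts4 likewise had their highest level in vestibular 1, at 9.27 FPKM against 2.68 to 3.81, and at 7.59 FPKM against 2.23 to 4.55. These 3 proteoglycan-cutting genes thus had their peak in the same library, and the log2 difference of Adamts1, 0.72 (SE 0.71, limma unadjusted p 0.372, adjusted p 0.609), was -0.24 without it.

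Adamts5, the main aggrecan-cutting enzyme of mouse cartilage, was the most regular among the genes of this role with higher vestibular levels. It had 9.59 and 8.98 FPKM among the vestibular and 3.67 and 5.71 FPKM among the cochlear libraries (log2 difference 0.88, SE 0.23, limma unadjusted p 0.0212, adjusted p 0.216). Adamts5 differed 1.07 times between vestibular 1 and 2, where the cartilage list, mostly collagen RNA, summed to 783 and 4357.5 FPKM. Whether cartilage RNA bears on the Adamts5 levels was not tested. Adamts15, of the same role, had the reverse order, with 0.677 and 0.379 FPKM among the vestibular and 2.37 and 3.17 FPKM among the cochlear libraries (log2 difference -1.30, SE 0.25, limma unadjusted p 0.00771, adjusted p 0.167). It was the only gene of the 42 with its highest level in cochlear 2, which was the highest library in 28.8% of all genes kept. Adamts8 and Adamts20 were at most 0.108 and 0.629 FPKM.

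A second set of ADAMTS genes peaked in vestibular 2. Adamts10, which binds fibrillin microfibrils and is mutated in Weill-Marchesani syndrome, had 21.6 and 64.3 FPKM among the vestibular and 12.3 and 13.3 FPKM among the cochlear libraries (log2 difference 1.47, 95% interval -0.17 to 3.11, limma unadjusted p 0.0665, adjusted p 0.300). Adamts13, the protease of von Willebrand factor, had 3.23, 12.6, 2.25 and 7.07 FPKM going from vestibular 1 and 2 to cochlear 1 and 2, so both replicate 2 libraries were high. Adamts2, which removes the N-propeptide of fibrillar procollagens, had 10.8 and 29.8 FPKM against 15.8 and 29.5 FPKM (log2 difference -0.25, SE 0.61, limma adjusted p 0.845), and again both replicate 2 libraries were high. Its relative Adamts14 had 2.08 and 1.19 FPKM against 0.482 and 0.525 FPKM, and Adamts3 was at most 0.524 FPKM.

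Among their substrates, the type I procollagen gene Col1a2 stood at 1140 and 3452 FPKM among the vestibular and 492 and 218 FPKM among the cochlear libraries. Adamts7 had 2.22 and 3.57 FPKM against 0.952 and 2.07 FPKM, and Adamts6 1.24 to 2.11 FPKM over all libraries. Below the filter, Adamts12 reached 2.19 FPKM in vestibular 1 (0.490 to 0.569 FPKM elsewhere), and Adamts17 and Adamts18 reached 1.71 and 1.36 FPKM in vestibular 2 (0.0476 to 0.594 and 0.0199 to 0.248 FPKM elsewhere). Adamts16 and Adamts19 were at most 0.330 and 0.352 FPKM.

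The ADAMTS-like genes, whose proteins are not enzymes, held the largest difference with a higher vestibular level. Adamtsl3 stood at 26.6 and 73.4 FPKM among the vestibular and at 8.56 and 4.96 FPKM among the cochlear libraries, a 7.40-fold ratio of means (log2 difference 2.59, SE 0.59, limma unadjusted p 0.0140, adjusted p 0.192). Adamtsl4, which binds fibrillin-1 and is mutated in inherited lens dislocation, had 17.3 and 33.4 FPKM against 7.44 and 11.7 FPKM (log2 difference 1.28, SE 0.41, limma unadjusted p 0.0398, adjusted p 0.255). Adamtsl1 had 13.1 and 11.1 FPKM against 8.20 and 7.33 FPKM (log2 difference 0.58, SE 0.14, limma unadjusted p 0.0184, adjusted p 0.210), and overlaps Sh3gl2 on the same strand, which had 2.06 to 13.5 FPKM. In all 3 genes the groups did not overlap, and Adamtsl3 kept a log2 difference of at least 1.87 without any single library. Adamtsl5 lay level, at 4.70 to 6.72 FPKM. Adamtsl2, a gene of geleophysic dysplasia, failed the filter, with 3.54 FPKM in vestibular 2, 0.173 FPKM in vestibular 1 and a listed 0 in both cochlear libraries. Fibrillin-1 (Fbn1), which Adamts10, Adamtsl2 and Adamtsl4 bind, had 103 and 54.1 FPKM against 16.0 and 9.52 FPKM.

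Of the TIMPs, Timp3 had the highest mean of all 84 genes and differed most between replicates. This matrix-bound inhibitor stood at 375 and 964 FPKM among the vestibular and at 279 and 277 FPKM among the cochlear libraries. The cochlear libraries were almost equal, and vestibular 2 was 2.57 times vestibular 1, so the log2 difference of 1.11 had a 95% interval of -0.36 to 2.58 (limma unadjusted p 0.102, adjusted p 0.352) and was 0.43 without vestibular 2. Timp1, which cytokines and growth factors induce in many cells, had 99.0 and 49.5 FPKM against 131 and 96.2 FPKM (log2 difference -0.67, 95% interval -1.84 to 0.49, limma unadjusted p 0.179, adjusted p 0.442), with the lowest level in vestibular 2. Timp4 stayed under the filter, at 0.780 and 0.779 FPKM against 0.306 and 0.149 FPKM. Timp1, Timp3 and Timp4 each lie inside a synapsin gene on the other strand (Syn1, Syn3 and Syn2), and these hosts were at most 1.25, 1.65 and 0.475 FPKM.

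**Figure D4:**
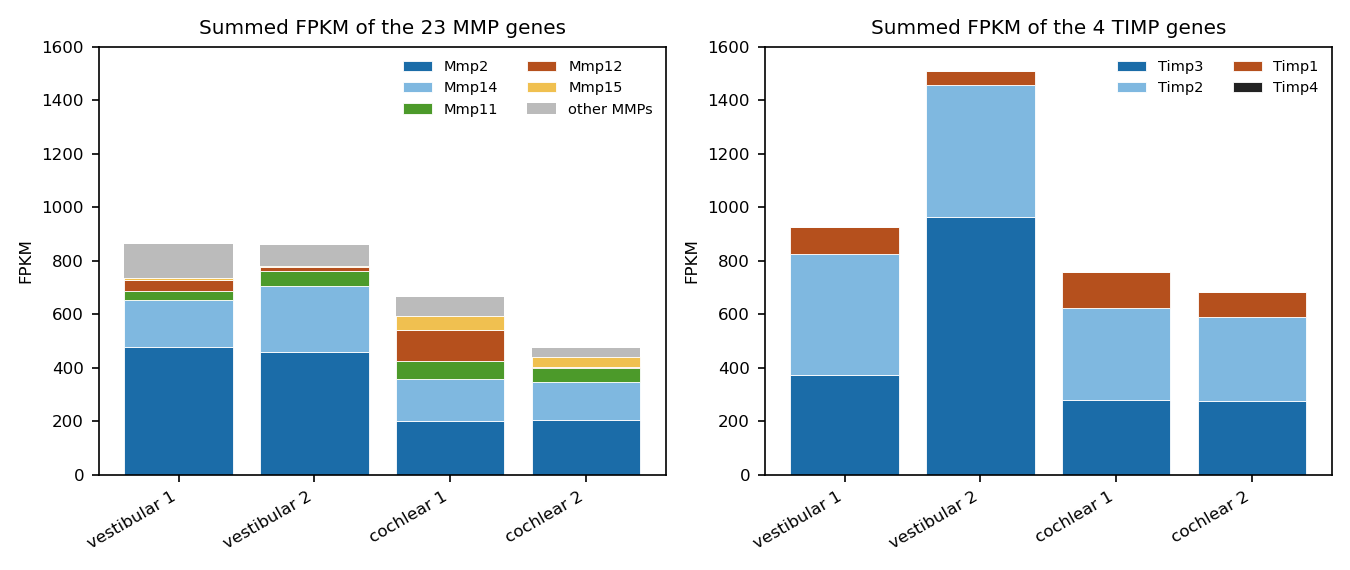
Summed FPKM of the 23 MMP genes (left) and of the 4 TIMP genes (right) per library, as stacked bars from 0 that show the largest contributors. Mmp2 and Mmp14 make up most of every MMP bar, the Mmp12 and Mmp15 blocks are tallest in cochlear 1, and the TIMP bar of vestibular 2 is highest and holds the largest Timp3 block.

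Summed over genes on the FPKM scale, MMPs came to 865 and 861 FPKM among the vestibular and 665 and 476 FPKM among the cochlear libraries. Mmp2 alone was 55.1% and 53.5% of that sum in the vestibular libraries, 30.2% in cochlear 1 and 42.9% in cochlear 2. TIMPs came to 927 and 1510 FPKM against 757 and 686 FPKM, and the TIMP sum was 1.07, 1.75, 1.14 and 1.44 times the MMP sum going from vestibular 1 and 2 to cochlear 1 and 2. The ratio of inhibitor to protease RNA thus overlapped between the groups, and both replicate 2 libraries had the higher ratio. Timp3 was 63.9% of TIMP RNA in vestibular 2 and 36.9% to 40.4% in the other libraries. ADAM genes summed to 369 and 353 against 370 and 190 FPKM, ADAMTS genes to 140 and 150 against 67.5 and 92.8 FPKM, and ADAMTS-like genes to 62.2 and 128 against 30.02 and 28.7 FPKM. All 84 genes together made up between 0.307% (cochlear 2) and 0.585% (vestibular 2) of the FPKM total, without overlap between the groups.

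Other genes of matrix turnover, listed beside these families, were compared in the same fit. Of 14 other matrix proteases 10 were kept, with 6 at an unadjusted p under 0.05 and higher vestibular levels (7.61% of all genes) and 0 with higher cochlear levels (10.6% of all genes). The 6 were Htra1, Ctsk, Bmp1, Pappa, Pappa2 and Fap. Bmp1, the C-propeptide protease of procollagens, had 64.7 and 74.6 FPKM against 43.4 and 46.9 FPKM (log2 difference 0.61, SE 0.12). Pappa2, a metzincin that cuts insulin-like growth factor binding proteins, had 18.3 and 37.6 FPKM against 1.06 and 4.35 FPKM (log2 difference 3.04, SE 0.64). The lysosomal protease gene Ctss was lowest in cochlear 2, as the macrophage markers were, at 387 and 270 FPKM among the vestibular libraries, 417 FPKM in cochlear 1 and 1.02 FPKM in cochlear 2. Ctsl was level at 430 to 492 FPKM, and Ctsb stood at 820 and 497 against 679 and 246 FPKM, with overlap. None of these genes passed the adjusted threshold in limma.

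Of 15 listed activators and other inhibitors 12 were kept, and 2 in each direction were at an unadjusted p under 0.05, against 7.61% (vestibular) and 10.6% (cochlear) of all genes. Plat, tissue plasminogen activator, had 44.4 and 42.5 FPKM among the vestibular and 95.4 and 108 FPKM among the cochlear libraries (log2 difference -1.20, SE 0.11, limma unadjusted p 0.000661). Bsg, or basigin, an inducer of MMPs, had 1208 and 1209 FPKM against 2100 and 3019 FPKM. Pcolce, an enhancer of procollagen processing, overlapped at 258 to 394 FPKM. Reck, a membrane-anchored MMP inhibitor, had 18.5 and 22.8 FPKM against 14.9 and 13.7 FPKM, and the protease inhibitor gene Serpine2 had 103 and 126 FPKM against 54.7 and 75.5 FPKM. Furin, which activates Mmp11, Mmp14, ADAMs and ADAMTSs, was level at 41.2 and 54.1 FPKM against 48.7 and 48.3 FPKM.

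Matrix substrates mostly stood higher in the vestibular libraries, in 14 of 16 kept, against 51.4% of all genes, with a median log2 difference of 1.21. At an unadjusted p under 0.05 were 8 in that direction and 1 in the other, against 7.61% and 10.6% of all genes. Bgn, or biglycan, had 1187 and 1329 FPKM against 721 and 572 FPKM, and the versican gene Vcan, which Adamts1, Adamts5 and Adamts9 cut, 6.51 and 8.58 FPKM against 3.48 and 3.48 FPKM. The cartilage collagen gene Col2a1 had 543 and 2365 against 83.9 and 38.5 FPKM, and fibronectin (Fn1) overlapped at 521 to 1323 FPKM. The 1 gene past that p in the other direction was tenascin C (Tnc), at 31.6 and 29.6 FPKM against 56.2 and 72.5 FPKM. The fibroblast markers stood higher in the vestibular libraries beside these genes and beside Mmp2, Mmp14 and Timp2, in 10 of 11 markers without overlap (26.9% of all genes). Col1a1, Col1a2, Col3a1, Dcn and Lum are on both lists, so 5 of the 11 fibroblast markers are matrix substrates themselves, and Acan, Col2a1 and Comp are also cartilage markers. The part of fibroblast RNA in these differences was not tested.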

How the data were processed

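The deposited values are FPKM, 1 value per gene symbol and library, per the file headers; per the labels' protocols the libraries were made from TRIzol RNA with a stranded mRNA kit. The submitters' processing notes name Cuffdiff 2.2.1, SAMtools 0.1.18, TopHat2 2.1.1 and Bowtie2 2.2.8, with mm10 as the build. The annotation, any use of strand and library scaling were not given in the sources used here, although each can move a value of this unit. Genes with a mean of at least 1 FPKM (13200) were fitted on log2(FPKM + 1) with limma 3.58.1 in R 4.3.3 (group as the only term, trended eBayes, 2-sided, Benjamini-Hochberg over all genes kept, threshold 0.05), and the fit was tested on simulated data. The alternatives were another pseudocount, other filters, 3 other scalings, other variance settings, a replicate block and each library left out. The genes and lists were chosen with earlier results of these data known. Values per library, or their range, are given for every gene kept; statistics are given for genes whose groups do not overlap with an unadjusted p under 0.05 and for the highest genes of each family. Of each list the 4 genes of highest mean are given. Fosl1, Csf1r, the hair cell genes, the LGI genes, Tspan5, Tspan15, Bmp1, Pappa2, Reck, Furin, Vcan, Tnc and Fbn1 were singled out after their values were seen. All 84 symbols matched GENCODE M21 (GRCm38, the assembly of mm10), and 53 matched RefSeq promoters (GRCm38.p6).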

Additional observations from a re-analysis of the deposited data

How the results depend on the processing

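In the main fit 15 of the 42 genes were at an unadjusted p under 0.05 in limma, against 18.2% of all genes. No protease or inhibitor gene passed limma's adjusted threshold under any alternative (adjusted p of at least 0.0834). Over all genes, 4 passed, 73 with no filter on low values (24346 genes tested), 0 with the replicate block and 0 to 0 with each library left out. Deviations from the group means of libraries of the same number correlated at 0.0432 over genes. With 2 libraries per group this value cannot exclude a shared batch. With the replicate block, 12 of the 42 (28.6%, against 5.98% of all genes) had higher vestibular levels at an unadjusted p under 0.05 in limma. Higher cochlear levels at that p were found in 3 (7.14%, against 8.32%). With each library left out, genes with all remaining cochlear libraries above all remaining vestibular libraries were also counted. They numbered 2 (4.76%, against 39.1% of all genes) without cochlear 1. Without cochlear 2, where 1 cochlear library remains, they numbered 8 (19%, against 36.8%). With all 4 libraries, both cochlear were above both vestibular in 5 genes (11.9%, against 29% of all genes) after rescaling without small RNA genes. With a filter of 5 FPKM this held for 1 gene (3.57%, against 29.6%). That filter also left 1 gene with higher cochlear levels at an unadjusted p under 0.05 in limma (3.57%, against 11%). The median difference was 0.15 with no filter, where all 84 genes enter. Differences of 12 genes near 0 or set by 1 library turned sign. With a pseudocount of 0.1 and after rescaling without small RNA genes, Adamts4 moved to -0.017 and -0.012 and Mmp13 to 0.67 and 0.063. With each library left out, the log2 differences ran from -0.082 to 0.23 (Adam10), -0.023 to 0.42 (Adam1a), -0.97 to 4.19 (Adam8), -0.24 to 1.67 (Adamts1), -0.28 to 1.41 (Adamts13), -0.94 to 0.44 (Adamts2), -0.68 to 0.73 (Adamts4), -0.042 to 0.31 (Adamtsl5), -2.13 to 4.21 (Mmp12), -1.36 to 1.14 (Mmp13), -0.36 to 0.88 (Mmp28) and -0.060 to 2.84 (Mmp3). The causes were not tested. Where 1 library was left in a group, its spread was taken to be that of the remaining pair, and the unknown depth limits statements on low genes.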
